A study of Mus musculus with 5 samples.

Results

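Pericytes, the cells that wrap capillaries and small venules from inside the vessel's basement membrane, were examined in mouse colonic mesenchyme profiled by Drop-seq, a droplet method that counts messenger RNA molecules of single cells through unique molecular identifiers (UMIs). A cell was called a pericyte when it held at least 1 UMI of 2 or more of 6 genes (Rgs5, Rgs4, Notch3, Ndufa4l2, Higd1b and Cox4i2) and stayed under 3 limits on other identities. A pericyte could hold no 3 of 5 smooth muscle genes (Actg2, Lmod1, Cnn1, Des and Synpo2), no 2 of the endothelial genes Flt1, Kdr, Plvap and Cdh5, and no 2 of the genes Rbp4, Aldh1a1 and Tmem158 of the Rbp4-positive fibroblasts. Of 7935 deposited barcodes, 6005 held at least 300 genes with at most 10% of UMIs from mitochondrial genes, and 160 of these were pericytes. Since 6 genes chose the cells, the levels of those 6 genes are a description and were not tested.

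The mice were untreated C57/BL6 animals, aged 10 weeks, and the study has 1 group with no contrast between conditions. The epithelium was stripped with EDTA and DTT, and the remaining mesenchyme was dissociated with Collagenase XI and Dispase. Cell suspensions of 2 biological replicates were collected 2 times (1A and 1B) and 3 times (2A, 2B and 2C). The labels do not give the number of animals in a replicate, and collections of 1 replicate share its cells, so means below are over the 2 replicates. No reporter, sort or transgene marks the cells, so the name pericyte rests on transcripts alone.

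Pericytes stabilise capillaries and set their calibre. They are recruited by platelet-derived growth factor B (PDGF-B) from endothelial cells through the receptor PDGFRB, and Notch3, switched on by ligands on the neighbouring endothelium, keeps their mural identity. Their tone follows potassium channels, nitric oxide and endothelin, and RGS proteins shorten the signals of the G protein-coupled receptors that carry such cues.

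The collections held 1636550 to 3345732 UMIs in all. Pericytes had a median of 1069 UMIs and 660.5 genes per cell, with 5.95% mitochondrial UMIs, and their summed counts came to 113566 UMIs in replicate 1 and 82552 in replicate 2. At this depth a gene with no UMI in 1 replicate may still be expressed, and low genes carry wide errors. No doublet caller was run. Across collections 6 retained barcodes occurred in more than 1 collection, and 0 of these were pericytes. Among the 160 pericytes, 14 also met the rule of another class (11 the fibroblast, 2 the enteric glia, 1 the lymphatic endothelial and 1 the macrophage rule), and 2 held 2 or more enteric neuron markers. Where a named call below did not pass without these 16 cells, its value without them is given.

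Pericytes made up a similar share of the retained cells in each collection. They were 44 of 1733 cells in collection 1A (2.54%), 40 of 1308 in 1B (3.06%), 31 of 1132 in 2A (2.74%), 22 of 864 in 2B (2.55%) and 23 of 968 in 2C (2.38%). The exact (Clopper-Pearson) 95% interval was 2.21% to 3.41% in replicate 1 and 2.03% to 3.20% in replicate 2, so the replicates overlapped, with a mean of 2.66% ± 0.14 (SD, n = 2). These intervals cover counting error only. Set against 271 and 200 blood endothelial cells, there were 31.0 pericytes per 100 endothelial cells in replicate 1 and 38 in replicate 2. How completely dissociation released either cell type was not measured, so neither ratio is that of the tissue.

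The 6 genes were held unevenly. Exactly 2 of them were found in 88 pericytes, 3 in 56, 4 in 13 and 5 in 3 cells. Rgs5, a GTPase-activating protein for G protein alpha subunits, was by far the most abundant, at 6267.5 CPM (UMIs of the gene per 1000000 UMIs) in collection 1A, 5975 in 1B, 9585 in 2A, 9048.5 in 2B and 6498.5 in 2C. Collections 2A and 2B were the highest, and 98.75% of pericytes held at least 1 UMI. Smooth muscle cells came next, at 799 ± 418 CPM (SD, n = 2). Its relative Rgs4 was found in 51.25% of pericytes, at 486, 557, 958, 992 and 884 CPM in the same order. Both collections of replicate 1 were below all 3 of replicate 2 for Rgs4.

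The other 4 genes of the rule were lower. Cox4i2, the alternative subunit 4 of cytochrome c oxidase, was at 369, 427, 773, 372 and 423 CPM in 1A, 1B, 2A, 2B and 2C. Notch3 was at 285, 278, 309, 248 and 269 CPM, the narrowest range over collections of the 6. Ndufa4l2, a hypoxia-inducible relative of the respiratory subunit NDUFA4, was at 369, 259.8, 216, 454 and 308 CPM. Higd1b, a small mitochondrial protein of the hypoxia-inducible domain family, rested on 10 UMIs in all, with 0 in collection 2C. All 5 of these genes were below Rgs5 in every collection.

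Rgs5 and Rgs4 are neighbours in the genome and are transcribed towards each other from opposite strands. In GRCm38 (mm10), Rgs5 spans chr1:169655501-169695813 on the plus strand and Rgs4 spans chr1:169741477-169747642 on the minus strand, with 45663 bases between them and no annotated gene overlapping either. Notch3 lies at chr17:32120820-32166852 on the minus strand and overlaps Gm17276 on the opposite strand, while Ndufa4l2 at chr10:127514967-127517154 overlaps Shmt2 on the opposite strand. Whether the counting used strand is not given in the sources used here, so reads of these pairs may be mixed. The promoters of the 3 genes of the rule found in the RefSeq table (GRCm38.p6, 250 bases up to the base before the start, 5′ to 3′ on the gene's strand) are shown because these genes define the cells. They lie at chr1:169655251-169655500 (plus strand), chr1:169747643-169747892 (minus strand) and chr17:32166891-32167140 (minus strand).
Rgs5: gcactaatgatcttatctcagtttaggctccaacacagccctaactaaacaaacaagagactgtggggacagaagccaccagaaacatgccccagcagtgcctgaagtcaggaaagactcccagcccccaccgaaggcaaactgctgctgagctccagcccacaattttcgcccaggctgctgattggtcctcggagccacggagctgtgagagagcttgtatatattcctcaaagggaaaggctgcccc
Rgs4: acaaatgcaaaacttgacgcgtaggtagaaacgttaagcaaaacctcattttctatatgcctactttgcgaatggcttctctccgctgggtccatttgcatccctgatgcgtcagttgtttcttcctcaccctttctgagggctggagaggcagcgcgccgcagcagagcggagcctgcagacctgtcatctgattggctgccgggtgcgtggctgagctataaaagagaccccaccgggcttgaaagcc
Notch3: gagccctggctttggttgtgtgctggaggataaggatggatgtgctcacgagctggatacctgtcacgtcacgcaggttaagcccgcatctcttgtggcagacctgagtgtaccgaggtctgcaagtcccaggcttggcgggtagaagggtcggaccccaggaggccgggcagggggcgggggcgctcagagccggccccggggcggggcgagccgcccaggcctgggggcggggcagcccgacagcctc

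The letters TGGGAA, the core recognised by RBPJ (the DNA-binding partner of Notch), were searched on both strands, with no other motif overlapping. None of these 3 promoters holds them, against 21.1% of all 16522 promoters of that length in the table.

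Each gene of the rule was described in cells chosen by the other 5. Rgs5 was present in 72 of 74 cells that held 2 or more of the other 5 genes (97.3%, exact 95% interval 90.6% to 99.7%), in 45.3% of cells with exactly 1 of them and in 9.82% of cells with none. Macrophages, which should lack Rgs5, also showed a UMI in 9.82% of cells at a higher median depth, so shares of Rgs5 at or below that were read as background. Smooth muscle cells gave 36.4%, blood endothelial cells 14.7%, fibroblasts 11.1% and lymphocytes 10.1%. After thinning each cell to 600 UMIs smooth muscle gave 25.0%, while blood endothelial cells, fibroblasts and lymphocytes gave 5.76%, 5.31% and 4.31%, beside 3.66% in macrophages and 5.25% in cells with none of the other genes. Whether free RNA or low expression gave these shares was not tested. Rgs4 was present in 38.6% of cells with 2 or more of the others (49 of 127), 5.68% with exactly 1 and 0.577% with none. Cox4i2 gave 29.7%, 4.08% and 1.28%, Ndufa4l2 24.1%, 2.60% and 0.255%, and Notch3 21.7%, 2.93% and 0.232% in the same order. Higd1b was found in 7 of 157 such cells (4.46%). The share of each gene was highest in cells with 2 or more of the others. After the same thinning the shares for 2 or more of the others ran from 1.42% for Higd1b to 90.9% for Rgs5, each above the shares with exactly 1 and none. The 6 genes were chosen with earlier results of these data known, which favours this order, so it is a description and no test of the rule.

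**Figure D1:**
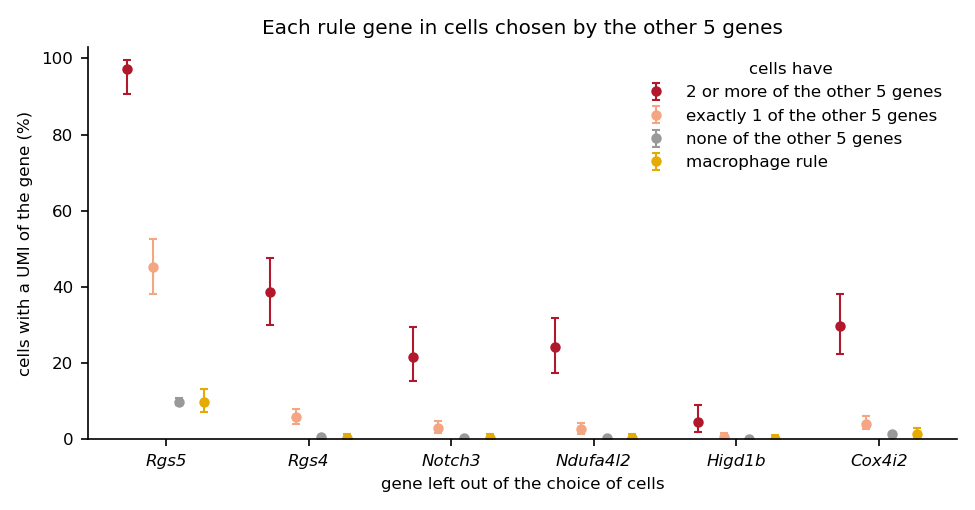
Percent of cells with at least 1 UMI of each of the 6 genes of the rule (horizontal axis), in cells that hold 2 or more, exactly 1 or none of the other 5 genes and in cells of the macrophage rule; points are shares and lines are exact 95% intervals. For each gene the share is highest in cells with 2 or more of the others, from 4.46% for Higd1b to 97.3% for Rgs5. The choice of the 6 genes favours this order.

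The cells on either side of the threshold of 2 genes were set side by side. The 573 cells with exactly 1 gene and the same limits held Rgs5 at 968 CPM, against 5753 in pericytes with exactly 2 genes and 8731 in those with 3 or more, an order that the rule itself favours. Of genes the rule did not use, Pdgfrb was at 69.5, 421 and 437 CPM and Chn1 at 9.93, 215 and 168 CPM in these 3 sets. Mfge8 and Cspg4 went up across all 3 sets, at 199.5, 458 and 1076 CPM and at 25.8, 102.9 and 247 CPM. Of the 573 cells, 469 held Rgs5 and none of the other 5 genes. These are the 9.82% of such cells, a share read above as background. Only 172 of the 573 met no other class rule, so most of this set met the rule of another class.

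Genes outside the rule were compared with 3 other classes chosen by their own markers, namely 121 smooth muscle cells, 471 blood endothelial cells and 2518 fibroblasts. The smooth muscle cells held 3 or more of Actg2, Lmod1, Cnn1, Des and Synpo2. They were also held to under 2 genes of the pericyte rule. A further 25 cells held 3 or more of these muscle genes and 2 or more genes of the pericyte rule. Those cells entered neither class, and whether they were vascular muscle was not tested. Beyond this limit no rule told vascular muscle from muscle of the gut wall. Which of these the class holds was not tested. Counts were summed per biological replicate and class and fitted with edgeR's quasi-likelihood test over 18 sums with the replicate as a block, and adjusted p-values are Benjamini-Hochberg over 6198 genes. Both the pericytes and their comparators were chosen by expression in these same cells, so a gene correlated with the marker genes is favoured by the choice. Against smooth muscle 325 genes were higher in pericytes (5.24% of those tested) and 305 lower (4.92%). Against blood endothelium 758 were higher (12.2%) and 1019 lower (16.4%). Against fibroblasts 456 were higher (7.36%) and 764 lower (12.3%), 19.7% in either direction. With DESeq2's size factors and test the last pair became 496 and 429, and the median log2 difference of all genes in this comparison was higher by 0.19 than with edgeR. Scaling and test were changed together there, and their parts were not told apart. No called gene changed sign with DESeq2. Without collection 1A 193 genes were higher and 175 lower than in smooth muscle and 500 were higher than in blood endothelium, and without 2A 176 and 174 were called against smooth muscle. In all 3 comparisons 89 genes were higher in pericytes (1.44%). This count was made with the 16 cells that held other markers. It includes Il1b, H2-Eb1, Cd74 and Snhg11, each with most of its pericyte UMIs in 1 cell, as given below. Log2 differences below are given with their standard errors.

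The mural identity list holds 35 genes known from pericytes of other organs, of which 22 passed the filter on low counts. Against blood endothelium 17 of the 22 were higher in pericytes and 1 was lower, with a median log2 difference of 3.80 beside -0.07 over all genes. Against fibroblasts 16 were higher and 2 lower. Against smooth muscle 12 were higher and 3 lower, with a median of 2.08 beside 0.03 over all genes. Over all genes the shares higher and lower were 12.2% and 16.4%, 7.36% and 12.3%, and 5.24% and 4.92% for the classes in that order. DESeq2 called 7 higher and 1 lower in the comparison with smooth muscle. The smooth muscle cells were held to under 2 genes of the pericyte rule. That limit favours higher mural genes in pericytes in this comparison, and its part in the counts was not tested. The list was compiled with earlier results of these data known, so these counts are a description of the cells.

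Pdgfrb, the receptor through which endothelial PDGF-B recruits mural cells, was at 519.5, 371, 371, 578 and 269 CPM in 1A, 1B, 2A, 2B and 2C (mean 424 ± 34.9, SD over 2 replicates). All 5 collections were above the means of smooth muscle (39.8 ± 21.2), fibroblasts (63.2 ± 9.79) and blood endothelium (6.22 ± 4.77). The log2 difference was 3.33 ± 0.48 against smooth muscle (adjusted p = 1.4e-08), 6.04 ± 0.43 against blood endothelium (2.1e-25) and 2.48 ± 0.26 against fibroblasts (1e-14). Its ligand Pdgfb showed the reverse, with 2 UMIs in all pericytes and 93.1 ± 9.47 CPM in blood endothelium.

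Cspg4, which encodes the proteoglycan NG2, was at 83.8, 204, 216, 165 and 231 CPM (mean 173 ± 46.0). It was higher than in smooth muscle by 2.77 ± 0.73 on the log2 scale (adjusted p = 0.0045), although cells with no mitochondrial limit gave 1.02 (adjusted p = 0.101). Ebf1, a transcription factor of mesenchymal lineages, was at 452, 445, 526, 744 and 654 CPM, above smooth muscle in every collection (46.1 ± 12.4; 3.42 ± 0.45, adjusted p = 9.3e-10). Gjc1 encodes connexin 45 of vascular gap junctions and was at 184, 148, 278, 454 and 346 CPM, higher than in blood endothelium by 2.30 ± 0.36 (6e-08). Its difference from smooth muscle, 2.00 ± 0.50 (0.0026), did not pass when cells needed 500 genes (1.37, adjusted p = 0.115). Nr2f2, known as COUP-TFII and as a factor of venous identity, averaged 233 ± 56.0 CPM against 29.6 in smooth muscle (2.91 ± 0.59, 0.00012) and 16.9 in blood endothelium. Lymphatic endothelial cells held 544 CPM of Nr2f2.

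**Figure D2:**
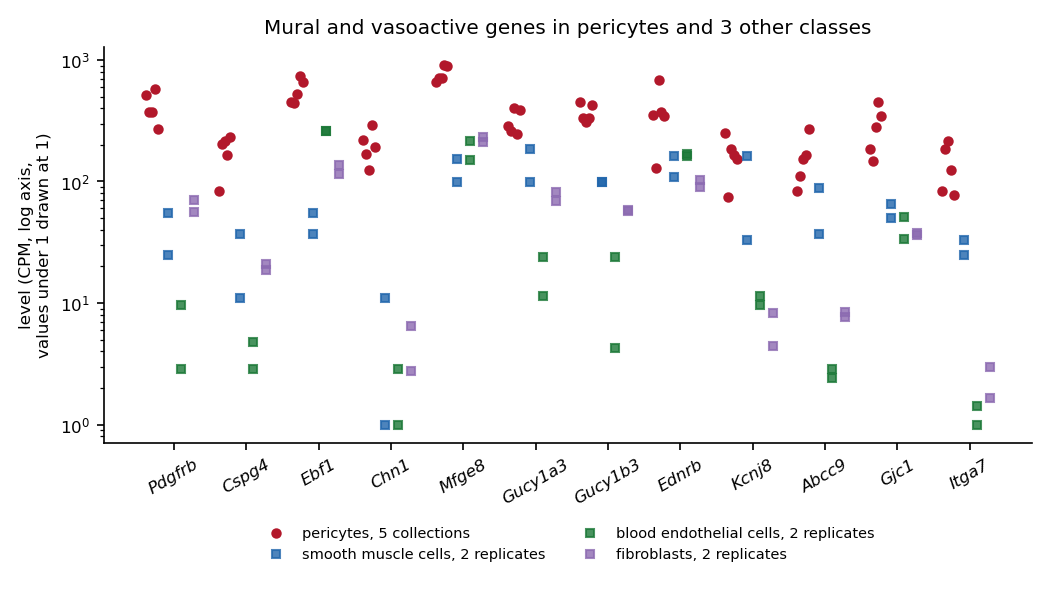
Level of 12 mural and vasoactive genes in CPM on a log axis, with pericytes of the 5 collections as red circles and the 2 replicates of smooth muscle cells, blood endothelial cells and fibroblasts as squares (values under 1 drawn at 1). All 5 pericyte points of Pdgfrb, 269 to 578 CPM, lie above the squares of the other 3 classes, while those of Kcnj8 overlap smooth muscle.

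Several members were not specific to pericytes. Mcam, the adhesion molecule CD146, was at 233 ± 30.4 CPM in pericytes, 165 ± 31.2 in smooth muscle and 245 ± 6.72 in blood endothelium, and neither difference passed. It was higher than in fibroblasts by 4.31 ± 0.39 (adjusted p = 5.4e-18). Ifitm1, an interferon-induced membrane protein, averaged 804 ± 353 CPM, above smooth muscle (148 ± 69.1; 2.30 ± 0.31, 3.2e-09) but beside 748 in fibroblasts. Aspn, a leucine-rich proteoglycan, was lower than in smooth muscle by 1.75 on the log2 scale (-1.75 ± 0.23, 4.2e-10), at 487 ± 20.8 against 1560.2 ± 289 CPM. Foxf2 and P2ry14, both lower than in smooth muscle, rested on 3 UMIs each in pericytes.

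The rule for genes specific to pericytes ranked 20 genes by their lowest replicate level over the highest level in any other class, as a description. Chn1, a Rac GTPase-activating protein, came first, at 218, 167, 124, 289 and 192 CPM. The next class, the Rbp4-positive fibroblasts, stood at 15.8 CPM, and smooth muscle held 1 UMI, a ratio of 33.3 with an exact counting interval of 5.62 to 1348. Rasd1, a small GTPase of the Ras family, was at 251, 297, 495, 207 and 385 CPM against 39.2 in fibroblasts, the next class. Pdgfrb, Parm1, Rpph1, Dgkb, Itga7, Tmem100, Mfge8, Gjc1, Gm13889, Pln, Rcan2, Naalad2, Inpp4b, Mgst3, Cystm1, Htatsf1, Zak and Ebf1 followed in that order. Parm1, Pln and Rcan2 were found mainly in the contractile-high pericytes described below.

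Among the ranked genes, Mfge8, the secreted integrin ligand lactadherin, was at 654, 705, 711, 909 and 884 CPM. Each collection exceeded every other class, of which the highest averaged 265 CPM, and the difference from smooth muscle was 2.48 ± 0.34 (adjusted p = 2.3e-09). Gm13889, which overlaps Gm27027 on the same strand, was at 871, 854, 2009.7, 785 and 1461 CPM, with 1 cell holding 8.64% of its UMIs, and was higher than in fibroblasts by 2.19 ± 0.22 (9.2e-16). Parm1, a membrane mucin, was at 201, 334, 278, 124 and 154 CPM and differed from smooth muscle by 2.63 ± 0.63 (0.0017). Without collection 2A that difference was 2.10 (adjusted p = 0.0563). Tmem100, a membrane protein of endothelial and mural cells, was at 235, 204, 155, 289 and 269 CPM, with 2 UMIs in smooth muscle, a ratio of 19.3 (counting interval 5.02 to 164).

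Named genes were taken among called genes with at least 100 CPM in the higher class and at least 1 UMI in every sum of both classes, so genes absent from a sum are not ranked. By that rule Procr had the largest difference from smooth muscle, at 503, 482, 773, 619.8 and 884 CPM. This gene for the endothelial protein C receptor was at 28.1 ± 22.2 CPM in smooth muscle (4.33 ± 0.49, adjusted p = 1.1e-12) but at 617 CPM in the Rbp4-positive fibroblasts. Ddit4, an inhibitor of the growth kinase complex mTORC1, was at 372 ± 90.4 against 29.6 ± 10.9 CPM (3.56 ± 0.51, 1.3e-08). Emp1, an epithelial membrane protein, was at 251, 557, 124, 165 and 308 CPM against 28.9 ± 5.66 (3.33 ± 0.49, 4.3e-08), with 28 of its 61 UMIs in the 16 cells with other markers. Crem, a cyclic AMP-responsive factor, was at 285, 129.9, 618, 702 and 385 CPM, lowest in collection 1B, against 35.1 ± 3.14 (3.32 ± 0.51, 1.5e-07). Inpp4b, an inositol phosphatase, and Pitpnc1, a phosphatidylinositol transfer protein, had 2 and 3 UMIs in smooth muscle, with ratios of 17.9 (4.66 to 153) and 11.1 (3.52 to 56.1). Ndrg1 and Gbp6 had 2 each there, with ratios of 12.7 (3.21 to 110) and 12.3 (3.09 to 106).

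By the same rule genes lower than in smooth muscle were led by Hhip, an inhibitor of hedgehog ligands, with 3 UMIs in pericytes against 1312 ± 96.8 CPM. The ratio was 86.1 (counting interval 29.1 to 421). Cpxm2 (-4.26 ± 0.50, adjusted p = 1.1e-11), Mfap5, a microfibril protein (-4.16 ± 0.45, 1.5e-13), Fam101b (-3.87 ± 0.49, 2.8e-10) and Grem1, an antagonist of bone morphogenetic proteins (-3.82 ± 0.60, 2.3e-07), followed, all below 40 CPM in pericytes. Fam101b was also lower than in blood endothelium (-4.59 ± 0.41, 1.5e-18), which held 657 ± 44.0 CPM.

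**Figure D3:**
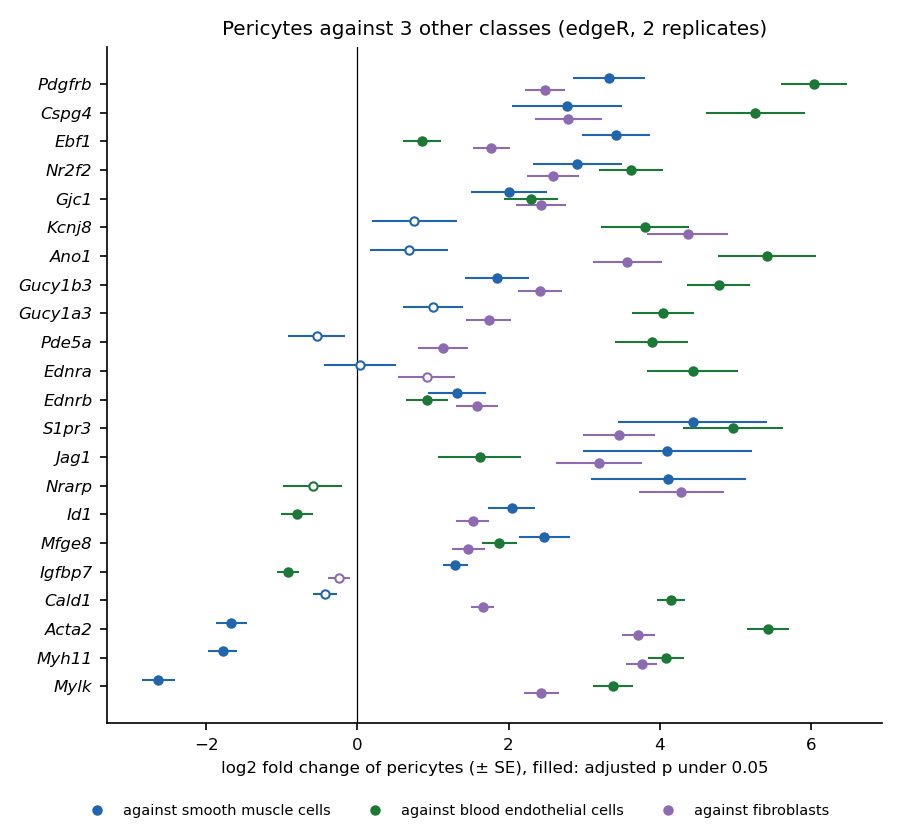
Log2 difference of 22 named genes in pericytes against smooth muscle cells, blood endothelial cells and fibroblasts (points coloured by comparison, filled where the adjusted p is under 0.05; lines are ± 1 standard error from edgeR; the vertical line marks 0). Pdgfrb lies right of 0 in all 3 comparisons (3.33, 6.04 and 2.48), while Acta2, Myh11 and Mylk lie left of 0 against smooth muscle and right of 0 against the other classes.

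Genes of vasoactive signalling were read by role, starting with receptors. Of 49 genes on the list 21 passed the filter, and 5 were higher and 1 lower than in smooth muscle, 11 higher and 6 lower than in blood endothelium, and 9 higher and 1 lower than in fibroblasts. Over all genes the shares higher and lower were 5.24% and 4.92%, 12.2% and 16.4%, and 7.36% and 12.3% for the classes in that order. DESeq2 called 2 higher and 1 lower against smooth muscle. Ednra, the endothelin receptor of vascular muscle, was at 151, 55.7, 124, 82.6 and 346 CPM. It was higher than in blood endothelium (4.76 ± 3.34 CPM; 4.44 ± 0.60, adjusted p = 4.9e-10), and its difference from smooth muscle (129 ± 28.1 CPM) was 0.03 ± 0.47. Ednrb, the other endothelin receptor, was at 352, 129.9, 680.2, 372 and 346 CPM, highest in 2A and lowest in 1B. It was higher than in smooth muscle by 1.31 ± 0.38 (0.013), and without collection 2A by 1.02 (adjusted p = 0.197).

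The endothelin gene Edn1 itself had 3 UMIs in pericytes and 401 ± 136 CPM in blood endothelium, a ratio of 24.6 (counting interval 8.36 to 120). S1pr3, a receptor for sphingosine 1-phosphate, was at 145 ± 68.6 CPM in pericytes with 1 UMI in smooth muscle (ratio 23.6, 3.89 to 967), but enteric glia held 542 CPM. Ptgir, the prostacyclin receptor, was at 67.0, 74.2, 155, 82.6 and 231 CPM. Smooth muscle and blood endothelium held 1 UMI of it each, and the next class, enteric glia, 7.28 CPM.

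Downstream of these receptors, both subunits of soluble guanylate cyclase, the sensor of nitric oxide, were present. Gucy1b3 was at 452, 334, 309, 331 and 423 CPM and Gucy1a3 at 285, 259.8, 402, 248 and 385. Every collection was above blood endothelium, at 14.1 ± 13.9 and 17.7 ± 8.90 CPM, with log2 differences of 4.78 ± 0.42 (adjusted p = 1.7e-19) and 4.04 ± 0.41 (8.9e-16). Lymphatic endothelial cells held 567 and 638 CPM of these genes. Against smooth muscle Gucy1b3 differed by 1.84 ± 0.42 (0.0008, and 0.133 by DESeq2) and Gucy1a3 by 1.00 ± 0.39 (0.091). Pde5a, which breaks down cyclic GMP, was at 187 ± 27.3 CPM, beside 250.4 ± 2.32 in smooth muscle. Pde3a, a cyclic nucleotide phosphodiesterase, had 22 UMIs in pericytes and none in blood endothelium, where 3 UMIs over the class would be 2.68 CPM, so it was at least 41.8-fold higher.

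Of the RGS list, which leaves out the 2 genes of the rule, 1 member was higher in pericytes than in all 3 classes, Rgs7bp. Of 16 genes 7 passed the filter, with 1 higher and 1 lower than in smooth muscle. Against blood endothelium 3 were higher and 1 lower, and against fibroblasts 2 were higher and 1 lower. Over all genes the shares higher and lower were 5.24% and 4.92%, 12.2% and 16.4%, and 7.36% and 12.3% for the classes in that order. Rgs7bp, an anchor for R7-type RGS proteins, was at 184, 241, 247, 124 and 192 CPM, with 3 UMIs in smooth muscle (ratio 11.7, 3.72 to 59.0). It was higher than in smooth muscle by 3.41 ± 0.76 (adjusted p = 0.00058), than in blood endothelium by 4.62 ± 0.58 (1.8e-11) and than in fibroblasts by 5.96 ± 0.55 (1.4e-17). Rgs10 was lower than in smooth muscle, at 38.5 ± 20.2 against 355 ± 133 CPM (-3.18 ± 0.48, 7.8e-08), and Rgs16 was lower than in blood endothelium, at 63.9 ± 21.8 against 457 ± 28.9 (-2.96 ± 0.35, 1.7e-12). Rgs2 was at 221 ± 13.3 CPM beside 233 ± 4.39 in smooth muscle and 286 ± 26.8 in fibroblasts. It was higher than in blood endothelium (99.8 ± 8.13; 0.97 ± 0.31, 0.0099), and by 0.66 (0.166) without the 16 cells. Rgs1 rested on 1 cell, which held 90.0% of its 30 UMIs.

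Channels and calcium handling set pericytes apart from endothelium and fibroblasts, while 1 member of this list, Casq2, passed the test against smooth muscle. Of 22 members that passed the filter, 11 were higher and 2 lower than in blood endothelium. Against fibroblasts 10 were higher and 0 lower, and against smooth muscle 0 were higher and 1 lower. Over all genes the shares higher and lower were 12.2% and 16.4%, 7.36% and 12.3%, and 5.24% and 4.92% for the classes in that order. Kcnj8 and Abcc9, the pore and sulphonylurea receptor of the vascular ATP-sensitive potassium channel, were at 251, 74.2, 186, 165 and 154 CPM and at 83.8, 111, 155, 165 and 269 CPM. All 5 collections were above blood endothelium, at 10.5 ± 1.28 and 2.63 ± 0.319 CPM, with differences of 3.80 ± 0.58 (adjusted p = 3.2e-08) and 5.32 ± 0.78 (7.7e-09). Against smooth muscle the differences were 0.76 ± 0.57 (0.45) and 1.09 ± 0.66 (0.33), and smooth muscle replicates were themselves uneven for Kcnj8, at 97.3 ± 91.1 CPM.

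Ano1, a calcium-activated chloride channel, was at 188 ± 8.50 CPM, beside 112 ± 34.8 in smooth muscle and 3.82 ± 1.38 in blood endothelium (5.42 ± 0.65, 2.8e-12). This gene is also a marker of interstitial cells of Cajal. The 4 markers of those cells together gave 58 UMIs in pericytes, 186 to 346 CPM by collection and 161 CPM over all retained cells, and their part in the Ano1 level was not tested. Atp1b2, a subunit of the sodium pump, was higher than in blood endothelium by 4.70 ± 0.69 (8.6e-09). Casq2, a calcium store protein of muscle, was lower than in smooth muscle, at 42.9 ± 26.5 against 222 ± 120.2 CPM (-2.27 ± 0.60, 0.0053), and at -1.94 (0.0531) without collection 2B.

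Notch signalling was described from ligands to targets. Of 29 genes on this list, which leaves out Notch3, 19 passed the filter, and 5 were higher and 0 lower than in smooth muscle (Notch1, Jag1, Dll4, Heyl and Nrarp), 3 higher and 6 lower than in blood endothelium, and 6 higher and 1 lower than in fibroblasts. Over all genes the shares higher and lower were 5.24% and 4.92%, 12.2% and 16.4%, and 7.36% and 12.3% for the classes in that order. DESeq2 called 1 higher against smooth muscle, and the list counts rest on few UMIs. The ligand Jag1 was at 101, 74.2, 155, 41.3 and 192 CPM, with 1 UMI in smooth muscle and 30.1 ± 1.81 CPM in blood endothelium (1.62 ± 0.54, adjusted p = 0.016). Without collection 2A or 2C the difference from endothelium was 1.46 (0.0706) and 1.42 (0.0751). The ligand Dll4 was at 68.8 ± 22.6 CPM, below the 348 ± 10.2 of blood endothelium (-2.55 ± 0.38, 1.4e-08), and the receptor Notch1 at 101 ± 80.2 against 231 ± 7.83 (-1.49 ± 0.38, 0.00095). Notch4, an endothelial receptor, had 1 UMI in pericytes.

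Among targets, Heyl, a repressor downstream of Notch3 in mural cells, had 19 UMIs in pericytes (134, 55.7, 92.8, 0 and 192 CPM) and none in smooth muscle, where 3 UMIs over the class would be 17.5 CPM. It was therefore at least 5.54-fold higher. Hey2 was present in pericytes at 11 UMIs and likewise absent in smooth muscle (at least 3.21-fold). Of 6 Notch genes in the promoter table Hey2 was the 1 whose promoter holds TGGGAA, 207 bases before its start. These letters occur in 21.1% of all 16522 promoters, and 1 of 6 is not above that share. Nrarp, a feedback inhibitor of Notch, was at 50.3, 129.9, 61.8, 124 and 269 CPM, higher than in fibroblasts by 4.29 ± 0.56 (2e-10) and beside 149.9 ± 11.8 in blood endothelium. Hes1, a target in many cell types, was at 2465 ± 385 CPM and its difference from smooth muscle did not pass (-0.12 ± 0.16, adjusted p = 0.73).

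Of 83 growth factors and receptors of the vessel wall, 58 passed the filter, with 9 higher and 8 lower than in smooth muscle. Against blood endothelium 17 were higher and 20 lower, and against fibroblasts 6 were higher and 19 lower. Over all genes the shares higher and lower were 5.24% and 4.92%, 12.2% and 16.4%, and 7.36% and 12.3% for the classes in that order. Hbegf, an epidermal growth factor receptor ligand, was at 251, 538, 433, 165 and 231 CPM. It was above smooth muscle in every collection (41.3 ± 11.9; 2.99 ± 0.46, adjusted p = 1.7e-07) and below blood endothelium (628 ± 55.4; -1.04 ± 0.24, 0.0002). Id1 and Id3, targets of bone morphogenetic protein signalling, were at 708 ± 43.1 and 3892 ± 12.3 CPM, higher than in smooth muscle by 2.04 ± 0.32 (1.6e-07) and 0.77 ± 0.16 (0.00014, and 0.0735 by DESeq2). Igfbp7, a secreted binding protein, was at 3114 ± 104 CPM, higher than in smooth muscle (1205 ± 32.3; 1.30 ± 0.17, 4.7e-10) and lower than in blood endothelium (5214 ± 506; -0.92 ± 0.15, 1.9e-07).

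Bdnf, brain-derived neurotrophic factor, was of low level, at 33.5, 92.8, 92.8, 124 and 192 CPM, detected in every collection. It had no UMI in smooth muscle (at least 5.25-fold higher) and 1 UMI in blood endothelium, and the next class, enteric glia, was at 55.6 CPM. Angpt1, the mural ligand that activates the endothelial receptor Tek, had 13 UMIs in pericytes and 3 in blood endothelium (ratio 24.7, 6.79 to 135), though the Rbp4-positive fibroblasts held 59.3 CPM. Tek had 1 UMI in pericytes and 195 ± 7.07 CPM in blood endothelium, and its antagonist ligand Angpt2 had 1 UMI and 85.0 ± 15.5 CPM.

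Of basement membrane and matrix genes more were lower than higher against fibroblasts, and more were higher than lower against blood endothelium. Of 66 that passed the filter, 32 were higher and 8 lower than in blood endothelium. Against fibroblasts 11 were higher and 39 lower, and against smooth muscle 8 were higher and 12 lower. Over all genes the shares higher and lower were 12.2% and 16.4%, 7.36% and 12.3%, and 5.24% and 4.92% for the classes in that order. Col4a1 and Col4a2, the chains of the vascular type IV collagen, were at 562 ± 284 and 614 ± 245 CPM, beside 442 ± 26.4 and 334 ± 38.1 in smooth muscle, and neither difference from smooth muscle passed. Timp3, an inhibitor of metalloproteinases, was at 1709, 1874, 3123, 1859 and 2384 CPM against 683 ± 227 in smooth muscle (1.56 ± 0.18, adjusted p = 1.1e-11). Adamts4, a proteoglycan-cleaving protease, was at 745 ± 231 against 159 ± 38.9 CPM (2.14 ± 0.31, 3.3e-08). Vtn, the adhesion protein vitronectin, had 26 UMIs in pericytes and 3, 1 and 3 in smooth muscle, blood endothelium and fibroblasts. The laminin receptor subunit Itga7 was at 139 ± 9.39 CPM and higher than in fibroblasts by 5.44 ± 0.70 (1.2e-10).

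Interstitial collagen transcripts were in part carried by few cells. Dcn, the proteoglycan decorin, was at 1166 CPM against 10880.0 ± 444 in fibroblasts (-3.52 ± 0.17, adjusted p = 3.4e-41), with 110 of its 228 UMIs in the 16 cells with other markers. For Col3a1 the same cells held 190 of 337 UMIs. The 8 fibroblast markers were present at 1188 CPM in sum, 216 to 2107 by collection, with Scara5 at 0. Their part in the collagen levels was not tested.

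Respiratory subunits differed by paralogue. The rule contains Cox4i2 and Ndufa4l2, and each has a common counterpart, Cox4i1 and Ndufa4, that it does not use. In pericytes Cox4i2 gave 90 of 228 UMIs of the pair (39.5%, exact 95% interval 33.1% to 46.1%), 33.1% in replicate 1 and 48.9% in replicate 2. The interval pools the replicates and covers counting error only, and the share of replicate 2 lies above it. To avoid the choice of cells by that gene, the share was taken again in 114 cells chosen by 2 or more of Rgs5, Rgs4 and Notch3, and was 36.5% (50 of 137, 28.4% to 45.1%). In the other 8 classes, which were held to under 2 genes of the rule, it was 0% to 1.86%. Ndufa4l2 gave 76.5% of its pair in pericytes (62 of 81, 65.8% to 85.2%) and 79.6% in the 114 cells (39 of 49), against 0% to 3.03% elsewhere.

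**Figure D4:**
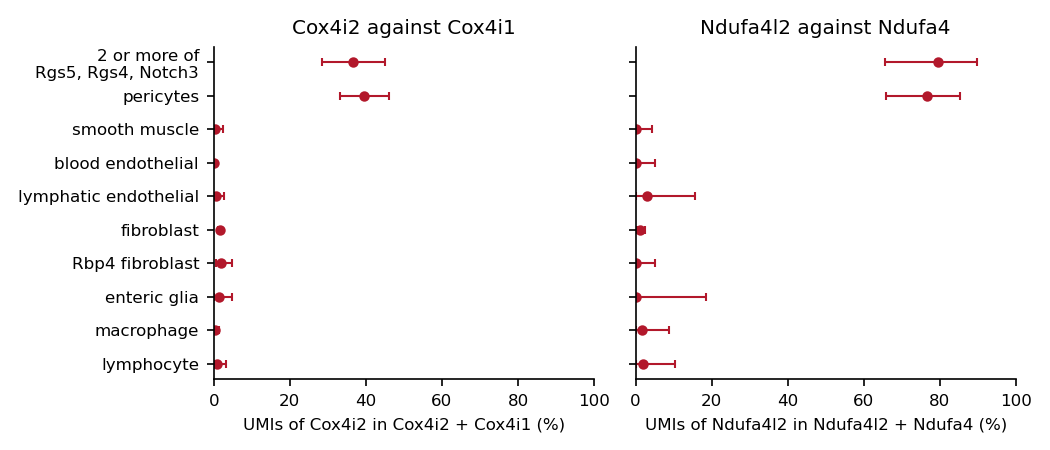
Share of the UMIs of a pair that come from Cox4i2 (left) and Ndufa4l2 (right), in percent, in cells chosen by Rgs5, Rgs4 and Notch3, in pericytes and in the other 8 classes; points are both replicates together and lines are exact 95% intervals. The lines cover counting error only and not the spread between replicates. The shares are 39.5% and 76.5% in pericytes and at most 3.03% in the other 8 classes.

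The common forms were lower than in smooth muscle. Cox4i1 was at 721, 891, 526, 661 and 538 CPM against 1329 (-1.02 ± 0.21, adjusted p = 0.00013), and Ndufa4 at 90.3 ± 59.1 against 476 ± 39.8 (-2.36 ± 0.38, 5.2e-07). Against blood endothelium the differences were 0.19 ± 0.20 and 0.40 ± 0.43 and did not pass. Of 22 respiratory and hypoxia genes tested, 2 were higher than in smooth muscle, Ddit4 and Epas1. Epas1, the oxygen-regulated factor HIF-2 alpha, was at 232 ± 117 against 51.5 ± 20.1 CPM (2.02 ± 0.51, 0.0033), with collection 2B highest at 578. The 4 lower genes were Ndufa4, Cox4i1, Cox7a2 and Cox8a. Against blood endothelium 1 gene of the list was higher, Cox8a, and 6 were lower, among them Ddit4 and Epas1 (-0.87 ± 0.28, 0.012, and -0.64 with 0.0911 without the 16 cells). Against fibroblasts 4 were higher, Ddit4 and Epas1 among them, and 0 lower. Over all genes the shares higher and lower were 5.24% and 4.92%, 12.2% and 16.4%, and 7.36% and 12.3% for the classes in that order.

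Chemokine, cytokine and adhesion genes were tested for 48 members, of which 11 were higher and 4 lower than in smooth muscle. Against blood endothelium 13 were higher and 12 lower, and against fibroblasts 5 were higher and 19 lower. Over all genes the shares higher and lower were 5.24% and 4.92%, 12.2% and 16.4%, and 7.36% and 12.3% for the classes in that order. The neutrophil chemokine Cxcl1 was at 906 ± 151 CPM, above smooth muscle (299.7 ± 72.1; 1.52 ± 0.24, 4e-07) and below fibroblasts (2011 ± 320.3; -1.43 ± 0.18, 4.3e-11). Cdh2, N-cadherin of contacts between pericytes and endothelium, had 14 UMIs in pericytes and none in smooth muscle (at least 4.08-fold higher).

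Some immune calls rested on 1 cell. A cell of collection 1A with 7997 UMIs, which held all 5 macrophage markers beside 2 genes of the rule, carried 54 of 54 Il1b UMIs, 69 of 76 of H2-Eb1 and 109 of 158 of Cd74. Cd74, the invariant chain of antigen presentation, differed from smooth muscle by 2.35 ± 0.34 (adjusted p = 1.5e-08) with this cell and by 0.90 (0.0999) without the 16 cells. H2-Eb1, of class II antigen presentation, is among the genes with the largest differences from smooth muscle, and 90.8% of its UMIs are in this cell. Its difference was 4.25 ± 0.71 (1.5e-06) with the 16 cells and 0.45 (0.893) without them. A cell of collection 2C with 3569 UMIs and 5 neuron markers held 28 of 39 Snhg11 and 73 of 135 Meg3 UMIs. Snhg11 differed from blood endothelium by 4.78 ± 0.59 (9.4e-12), by 1.42 (0.447) without the 16 cells and by 1.61 (0.491) when 3 of the 6 genes were required. Without the 16 cells 348 genes were higher and 333 lower than in smooth muscle, 658 and 979 than in blood endothelium, and 502 and 812 than in fibroblasts.

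Among genes with at least 100 CPM in the higher class and a UMI in every sum, the largest differences from blood endothelium included those of Pdgfrb, Cspg4, Abcc9, Ano1 and Gucy1b3, given above, and of muscle genes. Acta2, smooth muscle actin, differed by 5.43 ± 0.28 (adjusted p = 1.4e-37), and Fxyd1, a regulator of the sodium pump, by 5.09 ± 0.40 (1.2e-22), at 358 ± 7.91 against 9.07 ± 0.739 CPM. Ccdc141, at 104 ± 27.2 CPM, differed by 4.99 ± 0.80 (1.2e-07). Nrip2, a nuclear receptor cofactor, and Pln, which restrains the calcium pump of the sarcoplasmic reticulum, had 2 UMIs each in blood endothelium (ratios 77.0, 19.3 to 668, and 71.3, 17.8 to 621). Nrip2 had no UMI in smooth muscle (at least 7.88-fold higher in pericytes). The lowest genes by that rule were endothelial, with 3 UMIs of Ly6c1, 4 of Fabp4, 2 of Egfl7, 2 of Ctla2a and 4 of Ptprb in all pericytes. Blood endothelium held 489.8 to 1815 CPM of these 5. Cldn5, the endothelial tight junction gene, was at 0 in pericytes.

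Against fibroblasts the leading genes by that rule were Mlf1, Rgs7bp, Dgkb, Map7d2, Itga7, Pln, Sgip1, Pcp4l1, Chn1, Esam, Tinagl1 and Bcam. Pcp4l1, a small calmodulin-binding protein, was at 489 ± 92.5 against 11.9 ± 4.25 CPM (5.06 ± 0.31, adjusted p = 4.2e-31) but its differences from smooth muscle (0.38 ± 0.29, 0.47) and blood endothelium (0.40 ± 0.24, 0.23) did not pass. Esam, an adhesion molecule of vessels, was at 182 ± 17.1 against 4.46 ± 0.717 CPM (4.98 ± 0.46, 8.3e-18), with 341 ± 21.2 in blood endothelium. The genes furthest below fibroblasts by that rule were Has1, a hyaluronan synthase, with 3 UMIs in pericytes (ratio 39.5, 13.5 to 192), Cd55, an inhibitor of complement (-5.06 ± 0.43, 6.8e-20), Col8a1, Mfap4 and Fmo2.

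Contractile genes were mostly above blood endothelium and fibroblasts and below smooth muscle. Of 37 members that passed the filter, 26 were higher and 3 lower than in blood endothelium. Against fibroblasts 22 were higher and 0 lower, and against smooth muscle 2 were higher and 20 lower. Over all genes the shares higher and lower were 12.2% and 16.4%, 7.36% and 12.3%, and 5.24% and 4.92% for the classes in that order. The comparison with smooth muscle is partly set by the rules, which gave smooth muscle 3 or more and pericytes under 3 of 5 contractile or muscle genes. The list took 2.52% ± 0.36 of pericyte UMIs, 5.62% ± 0.675 in smooth muscle and 0.509% ± 0.018 in blood endothelium. Acta2 was at 1726, 2171, 1360.4, 785 and 1230.5 CPM, every collection below smooth muscle (4710.1 ± 446; -1.67 ± 0.21, adjusted p = 5.6e-11) and above fibroblasts (96.4 ± 20.8). Myh11, smooth muscle myosin heavy chain, was at 1341, 2134, 1484, 868 and 769 CPM and differed from smooth muscle by -1.78 ± 0.19 (1.9e-13). Cald1, the actin-binding caldesmon, was at 3568 ± 421 CPM and its difference from smooth muscle did not pass (-0.43 ± 0.16, 0.061). Crip1, a LIM protein, and Sorbs2, an adaptor of actin structures, were the 2 higher members, by 0.62 ± 0.17 (0.006) and 1.87 ± 0.60 (0.029). Without collection 1B Crip1 gave 0.54 (0.0632) and Sorbs2 2.175 (0.085), without collection 2A Sorbs2 gave 1.46 (0.191), and with no mitochondrial limit 0.13 (0.872).

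Pericytes were not alike in these genes. The share of UMIs from Acta2, Tagln, Myh11, Myl9 and Tpm2 ran from 0%, in 11 cells of replicate 1 and 19 of replicate 2, to 2.45% and 2.85%. Each replicate was split at its median share, 0.518% and 0.176%, into contractile-high and contractile-low cells (42 and 42, then 38 and 38). These are ranges of 1 score. Beyond the limit on smooth muscle genes, no rule set vascular smooth muscle cells apart from pericytes. Whether the ranges differ in cell type was not tested. Within 20% of the cut lay 6 and 12 cells. Since the cuts differ, low cells of replicate 1 reached 0.493%, while high cells of replicate 2 began at 0.179%. Some high cells of replicate 2 held 1 UMI of the 5 genes. High and low are therefore relative to each replicate and do not mark the same levels in both. The ranges had median depths of 1209 and 1091 UMIs in replicate 1 and 1061 and 1028.5 in replicate 2 for high and low, and mitochondrial shares of 6.72% and 5.16%, then 6.25% and 5.58%. Since the ranges were set by 5 genes in these same cells, a gene correlated with them is favoured by the split. Leaving the 5 out of the sums does not undo this. The 5 genes were then removed and the ranges compared over 6257 genes with edgeR in a fit of 20 sums. Of these 99 were higher in the contractile-high range (1.58%) and 86 lower (1.37%), 2.96% in either direction. Without collection 1A these were 53 and 18, and without 1B 51 and 43.

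Other contractile genes followed the 5, a direction that the split itself favours, so their calls are a description. Of 32 members tested 16 were higher in the contractile-high range and 0 lower, with a median log2 difference of 1.87 beside -0.06 over all genes. Of all genes 1.58% were higher and 1.37% lower. Myl6, the essential light chain of myosin, was at 464 and 663 CPM in the low range of replicates 1 and 2 and at 3761 and 2833 in the high range. The replicate levels of the ranges therefore did not overlap (2.60 ± 0.24, adjusted p = 9.3e-20). Tpm1, a tropomyosin, was at 1061 and 1492 against 4849 and 4062 (1.85 ± 0.21, 3.8e-13). Crip1 was at 978 and 1611 against 6529.5 and 5641 (2.32 ± 0.21, 7.8e-21). Flna, filamin A (2.83 ± 0.52, 1.6e-05), Mustn1 (2.68 ± 0.46, 3.5e-06) and Sorbs2 (4.03 ± 0.80, 0.00011) were also higher. The smooth muscle markers summed to 575 CPM in the low range and 2502 in the high range, with Chrm2 and Smoc2 at 0 in both, and whether smooth muscle RNA entered the high range was not tested.

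**Figure D5:**
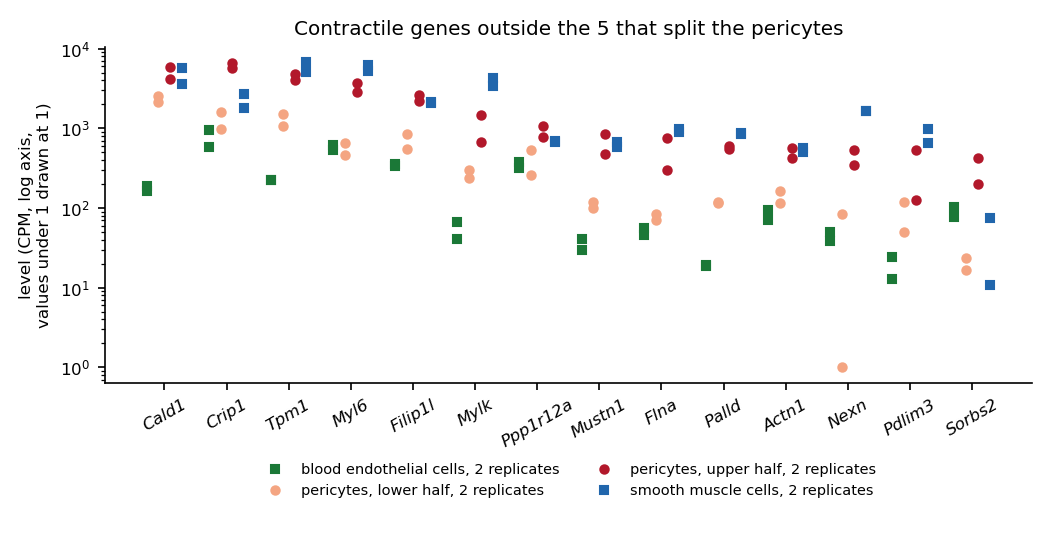
Level in CPM, on a log axis, of 14 contractile genes outside the score, in blood endothelial cells, the contractile-low and contractile-high range of the pericytes and smooth muscle cells (2 points each, 1 for each biological replicate; values under 1 drawn at 1). Myl6 is at 464 and 663 CPM in the low range and at 3761 and 2833 CPM in the high range.

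Promoters of contractile genes were searched for the CArG box, the element bound by serum response factor, which reads the same on both strands, with no other motif overlapping. It occurred in 5 of 47 promoters of 37 contractile genes in the RefSeq table, against 1.27% of all 16522 promoters. The 5 were those of Myl9, Myl6, Vcl, Cnn2 and Filip1l. The form counted was CC, a run of A or T, then GG, and looser forms were not counted. The Acta2 promoter, with no match, holds ccctatatgg and ccttgtttgg, each 1 base off that form. Myl9 and Myl6 are shown because Myl9 is part of the contractile score and Myl6, outside it, was higher in the contractile-high range. The table lists 2 promoters for Myl6, and the 1 with the element is printed. They lie at chr2:156775214-156775463 (plus strand) and chr10:128493010-128493259 (minus strand) in GRCm38.p6, with the CArG box in capitals.
Myl9: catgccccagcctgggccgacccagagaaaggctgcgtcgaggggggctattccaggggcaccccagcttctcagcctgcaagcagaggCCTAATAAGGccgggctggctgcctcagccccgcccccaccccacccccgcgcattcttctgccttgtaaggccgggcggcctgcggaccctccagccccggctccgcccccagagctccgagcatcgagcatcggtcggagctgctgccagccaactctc
Myl6: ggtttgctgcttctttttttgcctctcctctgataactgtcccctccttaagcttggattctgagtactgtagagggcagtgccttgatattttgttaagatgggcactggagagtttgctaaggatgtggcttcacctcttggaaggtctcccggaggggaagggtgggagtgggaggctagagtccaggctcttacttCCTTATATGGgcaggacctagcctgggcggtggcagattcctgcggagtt

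Beyond the contractile apparatus, the high range carried more of Sparcl1, a secreted matrix protein, at 2444 and 1304 CPM against 381 and 142 in the low range (2.78 ± 0.31, adjusted p = 5e-14). Prkcdbp, known as cavin-3 of caveolae, was at 668 and 451 against 82.9 and 47.4 CPM (3.06 ± 0.52, 2.6e-06). Fxyd1 was at 630.0 and 602 against 116 and 142 CPM (2.28 ± 0.44, 5.4e-05), and Pcp4l1 at 1031 and 627 against 149 and 237 (2.19 ± 0.39, 1.1e-05). The replicate levels of the ranges did not overlap for any of these 4 genes, and overlap between single cells was not examined. Pln had 25 UMIs in the high range and none in the low range, where 3 UMIs over that range would be 29.2 CPM (at least 9.14-fold). Rcan2, a regulator of calcineurin, had 31 UMIs against 1 (ratio 34.0, 5.67 to 1386), and P2rx1, an ATP-gated channel of vascular muscle, 15 against 0 (at least 5.49-fold). Parm1 was at 477 and 351 against 82.9 and 47.4 CPM (2.63 ± 0.64, 0.0042), and at 2.35 (0.125) without collection 1B.

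In the low range Ednrb was higher, at 431 and 758 CPM against 38.2 and 201 in the high range (-2.38 ± 0.48, adjusted p = 0.00019). Without collection 1A the difference was -1.89 (0.0586), and after thinning to 600 UMIs -1.07 (0.463). Kcnj8 was at 282 and 237 CPM against 38.2 and 100.3, and Abcc9 at 182 and 261 against 0 and 125, but neither passed (-1.99 ± 0.74, 0.14, and -1.99 ± 0.83, 0.21). Pdgfrb (580.4 and 497 against 305 and 301 CPM) and Cspg4 (116 and 261 against 172 and 150.4) did not pass either (0.26 and 1). Of 23 mural identity genes tested 1 was higher in the high range, Nr2f2 (1.70 ± 0.52, 0.043), and none was lower. Of all genes 1.58% were higher and 1.37% lower. Nr2f2 no longer passed without collection 1A (0.179), 1B (0.153) or 2A (0.171).

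Tnfrsf12a, the receptor of the cytokine TWEAK, was also lower in the high range, at 57.3 and 201 against 697 and 758 CPM (-2.59 ± 0.43, adjusted p = 1.3e-06). Emp1 gave -2.56 ± 0.48 (3.2e-05), and -1.63 (0.145) without collection 1B, and Cxcl10 -2.51 ± 0.54 (0.00049), and -0.50 (0.717) without 1B. Tcf21, a fibroblast transcription factor, was at 199 and 355 against 19.1 and 50.1 CPM (-3.00 ± 0.74, 0.0047), and at -3.07 (0.0514) without collection 1A. Without the 16 cells Tcf21 gave -2.54 (0.0626). H2-Eb1, H2-Aa, H2-Ab1 and Cd74 were also among the lower genes. Without the 16 cells they gave -0.06 (1), -0.64 (0.828), -1.71 (0.121) and -1.11 (0.199). Macrophage markers were at 390 CPM in the low range and 21.4 in the high range, neuron markers at 380 and 21.4, and fibroblast markers at 1628 and 706. Col3a1 was lower in the high range (-1.37 ± 0.22, 6.3e-07), but gave 0.12 without the 16 cells and -0.39 (0.531) without collection 1B. Without the 16 cells 75 genes were higher and 85 lower in the high range.

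Immediate-early genes and heat-shock genes, induced by cues in tissue and also by dissociation, took 4.49% ± 0.12 of pericyte UMIs, against 3.26% ± 0.089 in smooth muscle, 3.92% ± 0.18 in blood endothelium, 4.06% ± 0.016 in fibroblasts and 6.04% ± 0.56 in enteric glia. Of 27 genes tested 10 were higher and 1 lower than in smooth muscle. Against blood endothelium 8 were higher and 4 lower, and against fibroblasts 5 were higher and 6 lower. Over all genes the shares higher and lower were 5.24% and 4.92%, 12.2% and 16.4%, and 7.36% and 12.3% for the classes in that order. Atf3, a stress-induced factor, was at 2413, 2524, 3494, 2107 and 1923 CPM against 1514 ± 136 (0.66 ± 0.16, adjusted p = 0.0018; 0.57 and 0.064 without collection 2A), and Hspa1a, a heat-shock protein, at 2509 ± 597 against 1219.5 ± 88.7 (0.95 ± 0.17, 6.5e-06). Fos, at 4336 ± 667 CPM, had a difference from smooth muscle that did not pass (0.03 ± 0.14, 0.96). Within pericytes 8 were higher and 1 lower in the contractile-high range, beside 1.58% and 1.37% of all genes. Among the higher were Fos (1.35 ± 0.18, 2.8e-10) and Klf2 (1.66 ± 0.35, 0.00033). The mitochondrial share was also higher in that range in both replicates, and the part of cell handling in these differences was not tested.

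Genes whose pattern over 9 classes in 2 replicates (18 sums, log2 of CPM plus 10) was most like that of Rgs5 were Foxs1 (Pearson's r 0.95), Kcne4 (0.95), Aoc3 (0.93), Itga7 (0.92), Dgkb (0.91), Abcc9 (0.91), Pln (0.91) and Myom1 (0.90). The sums share libraries and Rgs5 chose the cells, so these values are descriptive. Foxs1, a forkhead factor, was at 33.5, 55.7, 61.8, 82.6 and 115 CPM with 17.9 in smooth muscle, the next class. Kcne4, a subunit that damps potassium channels, was at 182 ± 120.0 CPM against 54.5 ± 46.1 in smooth muscle and 4.28 ± 6.05 in blood endothelium, and Aoc3, a vascular amine oxidase, at 101 ± 6.19 against 66.2 ± 47.1 and 3.34 ± 1.33. For each of the 8 genes smooth muscle was the class with the next highest mean. It held 28.9 ± 5.66 CPM of Dgkb, a diacylglycerol kinase, against 193 ± 35.9 in pericytes.

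Markers of other cell types differed in how far they were present in the pericytes. Smooth muscle markers, 6 of 8 with a UMI, summed to 1494 CPM (1230 to 1726 by collection) and were found in 68.1% of pericytes, beside 479 CPM over all retained cells. Fibroblast markers, at the 1188 CPM given above, were found in 44.4% of pericytes, beside 5096 CPM over all retained cells. Enteric neuron markers, all 5 present, gave 209 CPM in 5 cells (0 to 1038 by collection) beside 78.2 over all retained cells, and macrophage markers, all 5 present, 214 CPM in 5 cells (0 to 637) beside 594. Enteric glia markers gave 29 UMIs in 4 cells (148 CPM, 0 to 371 by collection), with Sox10 and Gpr37l1 at 0, and markers of the Rbp4-positive fibroblasts 18 UMIs in 11 cells (91.8 CPM), with Rbp4 at 0.

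Blood endothelial markers gave 158 CPM in sum, 41.3 to 223 by collection, against 1402 CPM over all retained cells. The rule itself limited 4 of these 8 genes, 5 of the 8 smooth muscle markers and 3 of the 4 markers of the Rbp4-positive fibroblasts, so those levels are partly set by the choice of cells. Erythroid genes gave 20 UMIs in 18 cells, 11.25% of pericytes beside 17.4% of all retained cells. Epithelial and lymphocyte markers gave 1 UMI each, and mesothelial and adipocyte markers none. The part of these transcripts in the levels above was not tested.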

How the data were processed

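The deposited values were UMI counts per gene and cell barcode from 5 Drop-seq collections, without normalization. Per the submitters' processing notes reads were aligned with STAR 2.6 to mm10; the counter, its annotation and the choice of barcodes are not given in the sources used here. Cells with 300 genes and at most 10% mitochondrial UMIs were kept, classes were assigned by marker rules, and no doublet caller was run. UMIs were summed per biological replicate and class, which gave 80390 to 2025450 UMIs per sum in the class fit. Sums were tested with edgeR 4.0.16 (R 4.3.3, limma 3.58.1; filterByExpr, TMM, quasi-likelihood F test, Benjamini-Hochberg over all genes tested, threshold 0.05), blocked by biological replicate, since all classes of 1 replicate come from its suspension. The 47 genes of the class rules were not tested. Standard errors are the absolute log2 difference over the square root of F, and a mean ± SD is over 2 replicates. The p-values measure the spread between the sums of these 2 replicates. Over genes, pericyte deviations between the replicates correlated with those of the other classes at -0.054 to 0.030.

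The members and gene lists were chosen with earlier results of these data known. Genes were named by a rule: the genes that chose the cells; the 12 higher and 5 lower genes of each class comparison, and 10 and 10 of the contractile comparison, with the largest differences among called genes, the same direction in both replicates, at least 100 CPM in the higher class and 1 UMI in every sum; 20 specific genes; 8 genes most like Rgs5; and list members called against smooth muscle or blood endothelium at 50 CPM or more, up to 8 per list. Other list members and genes at 0 were named after their values were seen. Where a class held no UMI, a fold is a lower bound against a floor of 3 UMIs over the class; for 1 to 3 UMIs the ratio of summed counts has an exact 95% interval. Intervals and floors cover counting error only. Tables were made with Python 3.11.15, numpy 2.4.6, pandas 2.3.3 and scipy 1.17.1. The main fit was also run on simulated counts, with the same gene means in every class apart from genes changed in pericytes. That setting differs from these data, so no support is drawn from it. Alternatives were DESeq2 1.42.0, other filters on genes and cells, sums per collection, no block, 3 of the 6 genes, thinning to 600 UMIs and leaving out cells or collections.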

Additional observations from a re-analysis of the deposited data

Results flagged for a closer look

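Among 27 genes examined over the 5 collections, Cox4i2 in pericytes was set apart by 1 sample: collection 2A stood at 773 CPM, while 1A, 1B, 2B and 2C lay at 369, 427, 372 and 423 CPM. Such a gap occurs by chance in about 1 of 20 groups, and 1 of the 27 genes showed it.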

How the results depend on the processing

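With 2 biological replicates, precision is limited by replicate number and by low depth per cell, and the cause of each shift below was not tested unless fewer genes or cells explain it by construction. DESeq2 called 183 genes higher and 203 lower than in smooth muscle, 429 lower than in fibroblasts and 50 lower in the contractile-high range. With no filter on low counts 197 were lower than in smooth muscle and 56 higher in the contractile-high range. Sums per collection gave 632 lower than in blood endothelium and 491 lower than in fibroblasts. With no mitochondrial limit 527 were lower than in smooth muscle and the pericyte share was 3.13%. Requiring 3 of the 6 genes gave 191 higher than in smooth muscle, 303 higher than in fibroblasts, 50 and 40 in the contractile comparison and a share of 1.20%. Thinning to 600 UMIs, with fewer genes tested, gave 137 and 125, 244 and 425, 186 and 492, and 48 and 20 genes against smooth muscle, blood endothelium, fibroblasts and between the contractile ranges. The share was 2.35% with 500 genes per cell, 2.43% without cells of 2 classes, and 2.40% also without cells with neuron markers, an alternative chosen after seeing the data.

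Leaving out 1 collection at a time gave 176 to 310 higher and 174 to 263 lower genes against smooth muscle, 500 to 699 and 713 to 916 against blood endothelium, 309 to 426 and 513 to 677 against fibroblasts, 51 to 111 and 18 to 72 between the contractile ranges, and a share of 2.55% to 2.81%. Collection 1A moved the counts by over 1.5 times: without it 193 and 175 genes were called against smooth muscle, 500 higher than in blood endothelium, and 53 and 18 between the contractile ranges. Without 2A the counts against smooth muscle were 176 and 174, and without 1B those between the contractile ranges were 51 and 43. Without the replicate block the counts were 278 and 269, 730 and 951, 416 and 718, and 79 and 60. Leaving out a whole biological replicate gives differences with no test.

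Signs were followed over all alternatives for single called genes only, 58, 47 and 35 against smooth muscle, blood endothelium and fibroblasts. The contractile comparison had 39 such genes, and all changes of sign among the genes followed were there. For the other called genes signs were compared with DESeq2 only. Without cells of 2 classes Col3a1 gave 0.16 (0.12 also without cells with neuron markers), H2-Eb1 0.02492 and Mzt2 -0.37 (-0.33). With 3 of the 6 genes H2-Aa gave 6.84, H2-Eb1 6.26 and Mzt2 -0.96. Leaving out each collection or replicate in turn gave H2-Eb1 -4.897 to 0.171 and Il1b -11.15 to 0.003311, both highest without collection 1A, and Il1b gave 0 without replicate 1. Meg3 gave 1.15 with 500 genes per cell and -3.285 to 1.217 in the same omissions, highest without collection 2A. Mzt2 gave -0.09592 with 500 genes per cell and -0.47 after thinning.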
